A study of Mus musculus with 8 samples.

Results

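The 36 genes described here mark the endothelial cells that line the sinusoids of the liver, or encode angiocrine factors, the signals that these cells release to hepatocytes. They were taken as a list of names and found by gene identifier among the 55401 gene rows of each deposited table: 36 of 36 were present, and 36 of 36 passed the filter on low counts. By role they are 9 vascular receptors and co-receptors, 10 scavenger and other surface proteins of the sinusoid, 9 proteins of cell junctions and the vessel wall, 3 transcription factors with nitric oxide synthase Nos3, and 4 secreted angiocrine factors. The measurements come from bulk RNA-seq of whole liver in C57BL/6J mice, with 4 shTbl1xr1 libraries and 4 shNC libraries. An adeno-associated virus aimed at hepatocytes delivered a short hairpin RNA against Tbl1xr1 (shTbl1xr1) or the hairpin it was set against (shNC), partial hepatectomy followed 4 weeks later, and liver was taken 2 days after surgery. The stated aim was to learn what TBL1XR1, a subunit of the NCoR and SMRT corepressor complexes, does in liver regeneration. All 8 libraries therefore carry a virus and a hairpin and come from operated liver, and endothelial cells were not the cells the virus was aimed at. Replicates are numbered in the labels, and whether each came from its own mouse is not stated there. The p-values therefore measure only library-to-library spread, part of which could be technical.

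Sinusoidal endothelial cells form a fenestrated lining without a continuous basement membrane, and they clear hyaluronan, modified proteins and immune complexes from the blood through scavenger receptors. After partial hepatectomy they respond to VEGF and angiopoietins through tyrosine kinase receptors, release Wnt ligands, R-spondin and hepatocyte growth factor that act on hepatocytes, and divide later than hepatocytes do. In the resting liver, Wnt2, Wnt9b and Rspo3 from the endothelium around the central vein keep pericentral gene expression on, and endothelial Bmp2 sets hepatic Hamp, the iron hormone hepcidin.

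The hairpin's target was lower in all shTbl1xr1 libraries. Tbl1xr1 (ENSMUSG00000027630.13, GRCm38 chromosome 3, 22076652 to 22216594) stood at 2.38, 2.07, 9.24 and 15.9 CPM (library counts scaled to a common total after TMM) in shTbl1xr1 1 to 4, against 27.2, 35.9, 33.7 and 34.6 CPM in shNC 1 to 4. The groups did not overlap, and the difference of mean log2(CPM + 1) was -2.37, with a two-sided exact permutation p of 0.0286, the smallest that 4 against 4 libraries allow. By edgeR over all genes its log2 fold change was -2.07 (SE 0.54, adjusted p = 0.29) with all 8 libraries, -3.88 (adjusted p = 6.62e-05) for shTbl1xr1 1 and 2 and -1.38 (adjusted p = 0.143) for shTbl1xr1 3 and 4. The shTbl1xr1 libraries fall into pairs. Libraries 1 and 2 held 10895508 and 10728583 expected counts with 11.3% and 14.8% from mitochondrially encoded genes, libraries 3 and 4 held 26976205 and 36720879 with 4.52% and 6.26%, and the shNC libraries held 25811763 to 27537235 with 4.96% to 7.34%. Relative to the shNC mean, Tbl1xr1 was at 6.78% in shTbl1xr1 1 and 2 and at 38.3% in shTbl1xr1 3 and 4. The strength of the knockdown, the depth and the mitochondrial share thus differ together between the pairs and cannot be told apart. The pairs are reported apart for this reason, and no test of the difference between them was made.

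All 8 libraries carried RNA of hepatocytes and of sinusoidal endothelium. Alb, the albumin gene, ranged from 35361 to 55884 CPM in shTbl1xr1 and from 37592 to 52981 CPM in shNC, and no hepatocyte marker of 12 and no endothelial gene of the 36 was at 0 counts in any library. Per unit of length, in the authors' deposited TPM, the endothelial genes spanned a wide range. The TPM means that follow place the genes by level, pool both pairs of shTbl1xr1 libraries and are not a comparison of the groups. The water channel Aqp1 was highest, with a mean of 54.9 TPM in shTbl1xr1 and 85.7 TPM in shNC, followed by Clec4g (44.5 and 70.6 TPM), Plvap (32.7 and 56.8 TPM), Egfl7 (25.1 and 32.9 TPM) and Eng (19.8 and 28.0 TPM). At the low end, Wnt9b averaged 0.805 TPM in shTbl1xr1 and 0.985 TPM in shNC, and Sox17 averaged 0.810 and 1.23 TPM. Some of the 36 are also made outside the sinusoid: Mrc1, Fcgr2b and Stab1 by macrophages, and Aqp1 by bile duct cells.

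With all 8 libraries in the comparison, no endothelial gene was called different between the groups. The same fit did not call Tbl1xr1 either, so the lack of calls does not show that these genes were unchanged. By edgeR's quasi-likelihood test with Benjamini-Hochberg adjustment over the 13908 genes tested, 0 of 36 were called higher and 0 of 36 lower, where 0.0431% of all genes tested were called higher and 0.00719% lower at an adjusted p under 0.05. At an unadjusted p under 0.05 there was 1 of 36, Ehd3, beside 1099 higher and 516 lower of the 13908 genes tested. DESeq2 and limma-voom also called 0 of 36. The log2 fold change was negative for 27 and positive for 9, with a median of -0.22 over the 36 genes and 0.01 over all genes tested. The 6 smallest p-values belonged to Ehd3, Plvap, Tek, Ptprb, Cldn5 and Fcgr2b. Only Gpr182, an atypical chemokine receptor of sinusoidal endothelium, had groups that did not overlap, where 3.37% of all genes did so in the lower direction and 3.88% in the higher. Gpr182 read 26.5, 24.4, 26.9 and 25.1 CPM in shTbl1xr1, against 31.4, 29.4, 31.2 and 27.8 CPM in shNC. Its log2 difference between the groups was -0.22 (SE 0.13, adjusted p = 0.484 by edgeR). With the trend over gene length described below taken out, it was -0.04 (edgeR adjusted p = 0.917).

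The promoters of Ehd3, Tek and Cldn5 are printed because these are the 3 genes with the smallest p over all 8 libraries among those that the RefSeq promoter table (GRCm38.p6) holds. Each window runs from 250 bases before to 50 bases after the start annotated there, 5′ to 3′ on the plus strand. The windows lie at chr17:73804591-73804890 for Ehd3, chr4:94739039-94739338 for Tek and chr16:18776597-18776896 for Cldn5. The Ehd3 window lies inside the gene's span in GENCODE M21, 73804134 to 73832094, which places its start further upstream. Capitals mark matches to 3 short motifs searched on both strands, 1 for each of 3 factor families known from endothelial gene control. The letters searched for the ETS family were CGGAAG. The letters searched for the SOX family, to which Sox17 and Sox18 belong, were AACAAT. The letters searched for the GATA family, which includes an endothelial factor of the sinusoid, were AGATAA.
Ehd3: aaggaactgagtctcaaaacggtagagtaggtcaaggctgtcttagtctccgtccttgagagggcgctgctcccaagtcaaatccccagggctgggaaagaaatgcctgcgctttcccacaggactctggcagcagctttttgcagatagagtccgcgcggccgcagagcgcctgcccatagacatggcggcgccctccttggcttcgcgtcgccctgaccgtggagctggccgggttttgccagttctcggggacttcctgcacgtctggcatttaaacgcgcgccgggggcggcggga
Tek: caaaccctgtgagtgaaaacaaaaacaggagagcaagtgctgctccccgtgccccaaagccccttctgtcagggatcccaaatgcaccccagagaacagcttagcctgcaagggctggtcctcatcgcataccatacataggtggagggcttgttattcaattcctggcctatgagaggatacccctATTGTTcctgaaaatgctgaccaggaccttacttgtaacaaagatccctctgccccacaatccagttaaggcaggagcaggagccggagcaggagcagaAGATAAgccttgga
Cldn5: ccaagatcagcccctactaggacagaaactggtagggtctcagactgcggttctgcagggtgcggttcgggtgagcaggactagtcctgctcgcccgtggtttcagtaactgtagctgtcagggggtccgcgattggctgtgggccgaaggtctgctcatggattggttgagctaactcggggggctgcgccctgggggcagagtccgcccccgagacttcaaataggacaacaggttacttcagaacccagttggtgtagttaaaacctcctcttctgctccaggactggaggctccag
In the Tek window the SOX motif matched in reverse complement at bases 188 to 193 and the GATA motif as written at bases 287 to 292, and the other windows held 0 matches. The table held 24 windows of 20 of the 36 genes. The ETS motif was in 2 of them (8.333%) and in 16.85% of all 32851 windows. The SOX motif was in 3 of them (12.5%) and in 10.72% of all, and the GATA motif in 2 (8.333%) and in 11.18% of all. A match or its absence describes only these letters in this window.

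The map of log2 levels by library shows how the genes lay in each library. In shTbl1xr1 1 and 2 the median of the 36 genes lay at -0.48 and -0.66 relative to the shNC mean on the log2 scale. In shTbl1xr1 3 and 4 it lay at 0.17 and -0.07, and in shNC 1 to 4 at -0.10, -0.07, 0.14 and 0.06. In shTbl1xr1 1 and 2, 25 and 25 of the 36 genes lay below every shNC library, beside 41.2% and 41.3% of all genes tested, and 5 and 2 lay above every shNC library, beside 35.9% and 35.9%. In shTbl1xr1 3, 4 of the 36 lay below and 16 above, beside 27.5% and 27.1% of all genes. In shTbl1xr1 4, 9 lay below and 5 above, beside 26.7% and 28.4%. The genes also spread more widely in the first pair: the SD of the log2 difference over the 36 genes was 0.60 and 0.60 in shTbl1xr1 1 and 2, 0.28 and 0.32 in shTbl1xr1 3 and 4, and 0.13 to 0.26 in shNC. The summed level of the 36 genes was 660 and 601 CPM in shTbl1xr1 1 and 2, 1078 and 914 CPM in shTbl1xr1 3 and 4, and 920 to 1072 CPM in shNC. In bulk tissue, fewer endothelial cells and less of these RNAs per endothelial cell cannot be told apart. Libraries shTbl1xr1 1 and 2 also differed in depth and mitochondrial share, whose part was not tested, and in a trend over gene length described below.

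**Figure D1:**
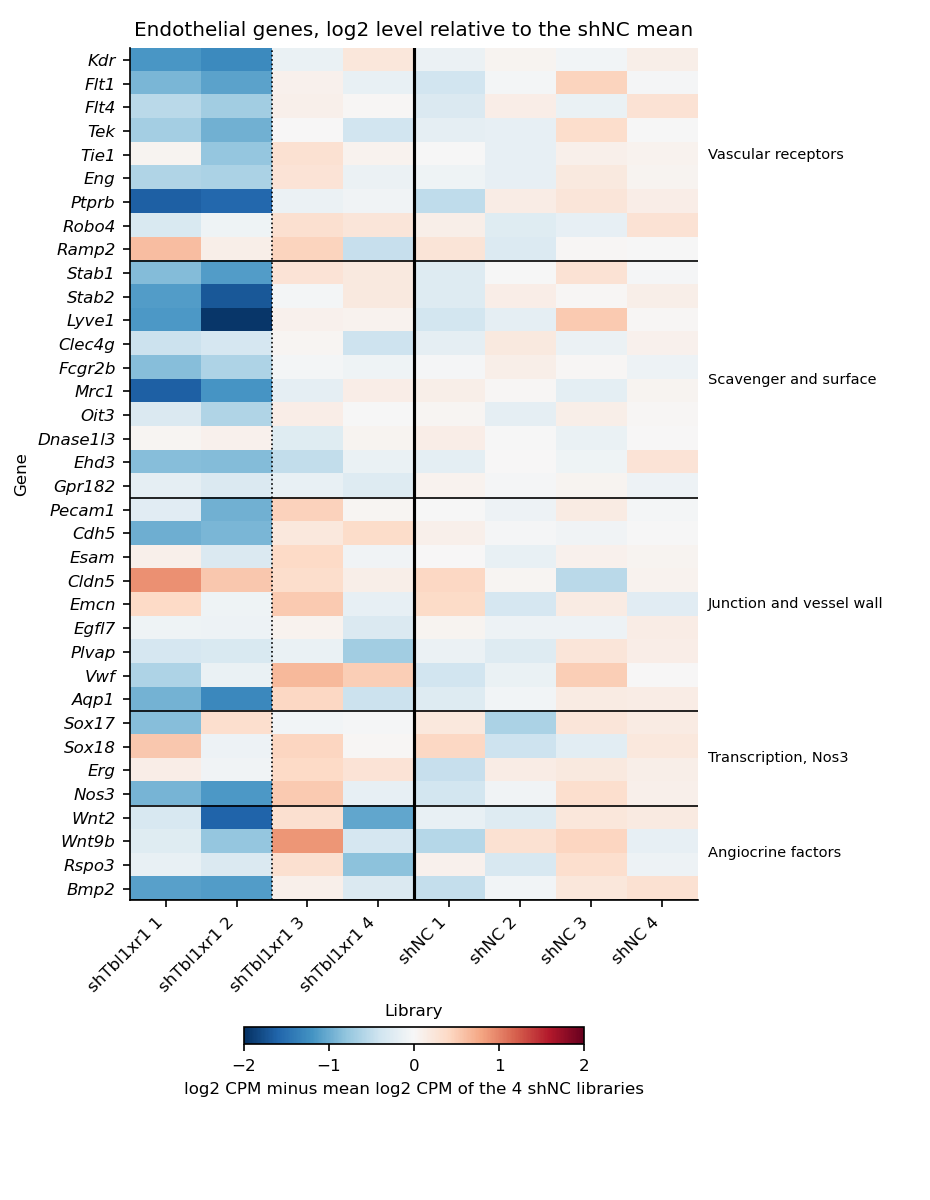
Level of each of the 36 endothelial genes in each library as log2 CPM minus the mean log2 CPM of the 4 shNC libraries (colour, blue lower and red higher); columns run shTbl1xr1 1 to 4 and then shNC 1 to 4, and horizontal lines part the roles. Blue fills most of the columns of shTbl1xr1 1 and 2, whose medians are -0.48 and -0.66, while shTbl1xr1 3 and 4 have medians of 0.17 and -0.07.

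Set against shNC on their own, shTbl1xr1 1 and 2 had 18 of 36 endothelial genes lower and 0 higher by edgeR's quasi-likelihood test at an adjusted p under 0.05. Of all 14314 genes tested in that comparison, 21.1% were called lower and 21.5% higher, so a large part of the transcriptome differed in this pair. The 18 were Kdr, Flt1, Flt4, Tek, Eng and Ptprb among the receptors, Stab1, Stab2, Lyve1, Clec4g, Fcgr2b, Mrc1, Oit3 and Ehd3 among the scavenger and surface proteins, Cdh5 and Aqp1 of the vessel wall, Nos3, and Bmp2. DESeq2 also called 18 lower, 16 of them among these, and limma-voom called 14 lower, all among these. By edgeR the median log2 fold change was -0.55 over the 36 genes and -0.09 over all genes tested. Both libraries of the pair lay below all shNC libraries for 22 of 36 genes, against 32.6% of all genes tested, and above them for 1 of 36 (Cldn5), against 28.8%. The count rested partly on 1 library: without shTbl1xr1 2, 10 of the 18 stayed under the threshold, and without shTbl1xr1 1, 15 genes were called, 12 of them among the 18.

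Set against shNC, shTbl1xr1 3 and 4 had 0 of 36 endothelial genes higher and 0 of 36 lower by the same edgeR test, where 0.0478% of the 14645 genes tested were called higher and 0.0% lower. DESeq2 also called 0 of 36. By edgeR 1 of 36 had an unadjusted p under 0.05, beside 985 higher and 677 lower of the 14645 genes tested. The median log2 fold change was 0.04 over the 36 genes and 0.00 over all genes tested, with 15 negative and 21 positive. Non-overlapping levels occurred for Gpr182 in the lower direction, where 10.2% of all genes did so, and for Cdh5 and Erg in the higher direction, where 10.4% did so. Both pairs share the same 4 shNC libraries.

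**Figure D2:**
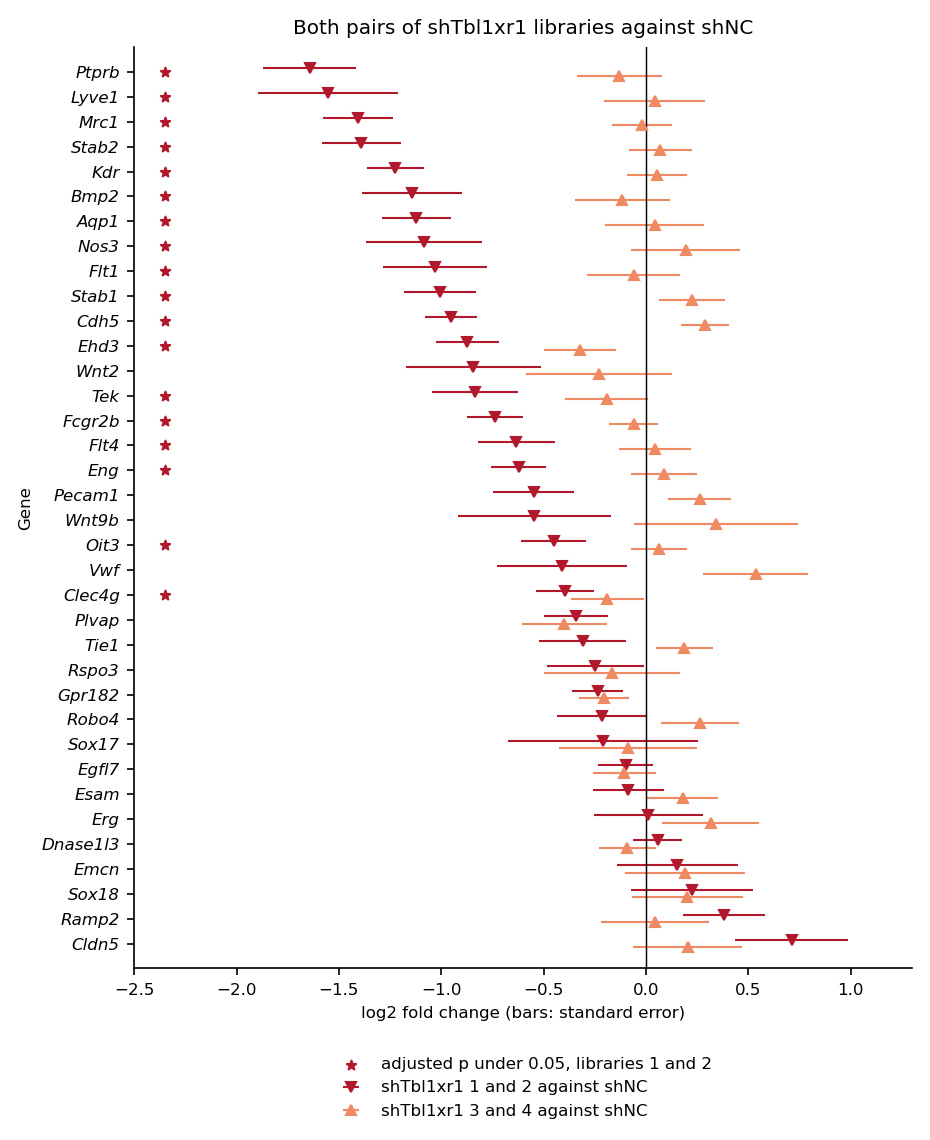
Log2 fold change against shNC of each endothelial gene in shTbl1xr1 1 and 2 (dark downward triangles) and in shTbl1xr1 3 and 4 (light upward triangles), with bars for the standard error; stars mark an adjusted p under 0.05 in libraries 1 and 2. The dark triangles run from -1.64 for Ptprb to 0.71 for Cldn5, and the light ones from -0.40 for Plvap to 0.54 for Vwf.

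Among the 9 vascular receptors, 6 were called lower in shTbl1xr1 1 and 2, beside 21.1% of all genes. These include the main signalling receptor for VEGF-A. Kdr (ENSMUSG00000062960.10, GRCm38 chromosome 5, 75932827 to 75978458) read 13.9, 12.8, 28.3 and 36.5 CPM in shTbl1xr1 1 to 4, against 28.7, 32.3, 29.8 and 33.9 CPM in shNC. Libraries 1 and 2 lay under every shNC library, and libraries 3 and 4 lay just under and above the shNC range. The log2 fold change of Kdr was -1.22 in shTbl1xr1 1 and 2 (SE 0.14, edgeR adjusted p = 0.000328) and 0.05 in shTbl1xr1 3 and 4 (SE 0.15, adjusted p = 0.923). Ptprb (chromosome 10, 116275523 to 116389535), the endothelial phosphatase that restrains Tek and Cdh5 signalling, had the largest change of the 36 in that pair. It read 14.5, 15.2, 41.6 and 43.2 CPM in shTbl1xr1, against 31.8, 50.1, 53.5 and 49.8 CPM in shNC. It fell by 1.64 in shTbl1xr1 1 and 2 (SE 0.23, edgeR adjusted p = 0.000756), and its log2 fold change was -0.13 (SE 0.21) in shTbl1xr1 3 and 4.

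Tek, the angiopoietin receptor also known as TIE2, stood at 8.64, 7.04, 13.9 and 10.6 CPM in shTbl1xr1, against 12.1, 12.3, 17.7 and 13.8 CPM in shNC. Only shTbl1xr1 3 reached into the shNC range, and over all 8 libraries the log2 fold change was -0.46 (SE 0.23, edgeR adjusted p = 0.444). In shTbl1xr1 1 and 2 it fell by 0.84 (SE 0.21, edgeR adjusted p = 0.0122). Eng, the endothelial co-receptor for BMP ligands, read 43.4, 42.5, 79.7 and 60.8 CPM in shTbl1xr1, against 61.9, 58.6, 75.04 and 68.5 CPM in shNC, and fell by 0.62 in the first pair (SE 0.14, edgeR adjusted p = 0.00618). Flt1, a VEGF-A receptor that also acts as a decoy, and Flt4, the receptor for VEGF-C and VEGF-D, fell by 1.03 and 0.63 there, with edgeR adjusted p-values of 0.0111 and 0.0234. With the trend over gene length described below taken out, Tek, Eng, Flt1 and Flt4 had -0.34, -0.31, -0.30 and 0.05 in that pair. None of them was then called by edgeR. The other three receptors were not called in either pair. Tie1, the partner receptor of Tek, had a log2 fold change of -0.31 in shTbl1xr1 1 and 2 and 0.19 in shTbl1xr1 3 and 4, the endothelial guidance receptor Robo4 had -0.22 and 0.26, and Ramp2, the accessory protein of the adrenomedullin receptor, had 0.38 and 0.04.

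Among the roles, the scavenger and other surface proteins had the highest share of calls in shTbl1xr1 1 and 2. There 8 of 10 were called lower, beside 21.1% of all genes. Of these, Mrc1, Fcgr2b and Stab1 are also made by macrophages, whose markers were called lower for 10 of 12 in that pair. Stab2 (chromosome 10, 86841198 to 87008025), the receptor that clears hyaluronan from blood, read 21.9, 14.8, 46.6 and 54.6 CPM in shTbl1xr1, against 39.8, 52.4, 48.4 and 51.8 CPM in shNC. Libraries 1 and 2 were the lowest of the 8, and libraries 3 and 4 lay in the range of shNC or above it. Stab2 fell by 1.39 in shTbl1xr1 1 and 2 (SE 0.19, edgeR adjusted p = 0.000733). Lyve1 (chromosome 7, 110850607 to 110863239), a hyaluronan receptor of sinusoids and lymphatics, read 4.13, 2.35, 9.92 and 9.82 CPM in shTbl1xr1, against 7.18, 8.23, 13.4 and 9.40 CPM in shNC. It fell by 1.55 in the first pair (SE 0.34, edgeR adjusted p = 0.00684), where it rested on 33 and 17 counts. Mrc1 (chromosome 2, 14229392 to 14332057), the mannose receptor, read 10.5, 14.4, 28.9 and 35.97 CPM in shTbl1xr1, against 35.4, 33.2, 28.6 and 33.99 CPM in shNC, and fell by 1.41 (SE 0.17, edgeR adjusted p = 0.000433). In shTbl1xr1 3 and 4 the log2 fold changes of these genes were 0.07 for Stab2, 0.04 for Lyve1 and -0.02 for Mrc1.

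Ehd3 (chromosome 17, 73804134 to 73832094), an ATPase of endocytic recycling enriched in sinusoidal endothelium, had the smallest p of the 36 over all libraries. It read 41.7, 41.4, 53.3 and 68.5 CPM in shTbl1xr1, against 65.6, 75.8, 71.3 and 91.0 CPM in shNC. Of the 4 shTbl1xr1 libraries only the fourth reached into the shNC range. The log2 fold change was -0.56 over all 8 libraries (SE 0.20, unadjusted p = 0.0187, edgeR adjusted p = 0.388), -0.87 in shTbl1xr1 1 and 2 (adjusted p = 0.00215) and -0.32 in shTbl1xr1 3 and 4 (adjusted p = 0.551). Fcgr2b, the inhibitory IgG receptor that takes up immune complexes, read 18.7, 22.1, 33.0 and 32.0 CPM in shTbl1xr1, against 33.1, 36.5, 34.3 and 31.4 CPM in shNC, and fell by 0.74 in the first pair (edgeR adjusted p = 0.00287). The sinusoidal lectin Clec4g read 40.4, 43.1, 55.7 and 40.7 CPM in shTbl1xr1, against 48.3, 62.8, 50.3 and 58.0 CPM in shNC, and fell by 0.40 there (edgeR adjusted p = 0.0488). Stab1, the sister scavenger receptor of Stab2, fell by 1.01 and Oit3, a zona pellucida domain protein, by 0.45, with adjusted p-values of 0.00224 and 0.0458. Dnase1l3, a secreted nuclease that degrades chromatin in the blood, and Gpr182 were not called, with log2 fold changes of 0.06 and -0.24 in shTbl1xr1 1 and 2.

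Of the junction and vessel wall genes, 2 of 9 were called lower in shTbl1xr1 1 and 2, a share close to the 21.1% of all genes. Cdh5, the cadherin of endothelial adherens junctions, fell by 0.95 there (SE 0.13, edgeR adjusted p = 0.000648) and stood at 0.29 on the log2 scale (SE 0.12, adjusted p = 0.423) in shTbl1xr1 3 and 4. Aqp1 read 81.7, 63.9, 210.0 and 116 CPM in shTbl1xr1, against 131, 151, 176 and 174 CPM in shNC. Its highest library and its 3 lowest were all shTbl1xr1, and it fell by 1.12 in the first pair (edgeR adjusted p = 0.00106). Plvap, which forms the diaphragms of fenestrae and caveolae, read 60.1, 61.5, 69.7 and 47.1 CPM in shTbl1xr1, against 70.5, 63.9, 90.0 and 83.1 CPM in shNC. Only shTbl1xr1 3 lay inside the shNC range. Its log2 fold change was -0.37 (SE 0.18, edgeR adjusted p = 0.428) over all libraries, -0.34 in shTbl1xr1 1 and 2 and -0.40 in shTbl1xr1 3 and 4, with close values in the pairs.

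Cldn5, the tight junction claudin of endothelium, had the largest positive value. It read 8.51, 6.49, 5.73 and 4.83 CPM in shTbl1xr1, against 5.96, 4.61, 3.05 and 4.70 CPM in shNC, and its log2 fold change was 0.71 (SE 0.28, edgeR adjusted p = 0.0634) in shTbl1xr1 1 and 2 and 0.20 (SE 0.27) in shTbl1xr1 3 and 4. Egfl7, a secreted matrix protein of endothelium, read 20.2, 19.9, 22.5 and 17.4 CPM in shTbl1xr1, against 22.1, 19.8, 19.98 and 23.7 CPM in shNC, with a log2 fold change of -0.10 (SE 0.14) over all libraries. The groups overlapped for both genes. The adhesion molecule Pecam1 had -0.55 (edgeR adjusted p = 0.0507) in shTbl1xr1 1 and 2 and 0.26 in shTbl1xr1 3 and 4. The clotting factor carrier Vwf had -0.41 and 0.54, the adhesion molecule Esam -0.09 and 0.18, and the sialomucin Emcn 0.15 and 0.19, and none of these was called in either pair.

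Sox17, Sox18 and Erg, transcription factors of endothelial identity, were called in none of the comparisons with all libraries or with either pair. Sox17 had log2 fold changes of -0.21 (SE 0.46) in shTbl1xr1 1 and 2 and -0.09 in shTbl1xr1 3 and 4, Sox18 had 0.22 and 0.20, and Erg had 0.01 and 0.32. Sox17 rested on 6 and 13 counts in shTbl1xr1 1 and 2. Nos3, the endothelial nitric oxide synthase, read 2.75, 2.35, 7.66 and 4.76 CPM in shTbl1xr1, against 4.09, 5.06, 6.77 and 5.72 CPM in shNC, and fell by 1.085 in the first pair (SE 0.28, edgeR adjusted p = 0.0136).

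Of the 4 angiocrine factors only Bmp2 was called, lower in shTbl1xr1 1 and 2, where 21.1% of all genes were called lower. Bmp2 (chromosome 2, 133552159 to 133562885) read 8.26, 8.01, 18.8 and 14.4 CPM in shTbl1xr1, against 12.6, 16.9, 20.5 and 21.8 CPM in shNC. Libraries 1 and 2 lay under every shNC library and libraries 3 and 4 inside the range, and it fell by 1.14 in shTbl1xr1 1 and 2 (SE 0.24, edgeR adjusted p = 0.00551). Wnt2 (chromosome 6, 17988940 to 18030585) read 6.13, 2.49, 9.63 and 3.72 CPM in shTbl1xr1, against 6.96, 6.401, 9.06 and 8.72 CPM in shNC. Here the 2 lowest libraries came from different pairs, shTbl1xr1 2 and shTbl1xr1 4, and shTbl1xr1 3 was the highest of all 8. The log2 fold change of Wnt2 was -0.84 (SE 0.33, edgeR adjusted p = 0.0661) in shTbl1xr1 1 and 2, -0.23 (SE 0.36) in shTbl1xr1 3 and 4, and -0.48 (SE 0.37, adjusted p = 0.575) over all libraries.

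Wnt9b read 2.63, 1.80, 5.80 and 2.45 CPM in shTbl1xr1, against 2.08, 3.89, 4.22 and 2.76 CPM in shNC, and Rspo3, the R-spondin that sensitises hepatocytes to Wnt, read 5.63, 5.11, 7.89 and 3.52 CPM, against 6.67, 4.997, 7.93 and 5.86 CPM. Groups overlapped for both. Over all libraries the log2 fold changes were 0.01 for Wnt9b (SE 0.39) and -0.20 for Rspo3 (SE 0.27), with edgeR adjusted p-values of 0.992 and 0.756. For all 4 angiocrine factors shTbl1xr1 3 lay above shTbl1xr1 4, and for Wnt2, Wnt9b and Rspo3 the gap between these 2 libraries was wider than the whole shNC range.

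**Figure D3:**
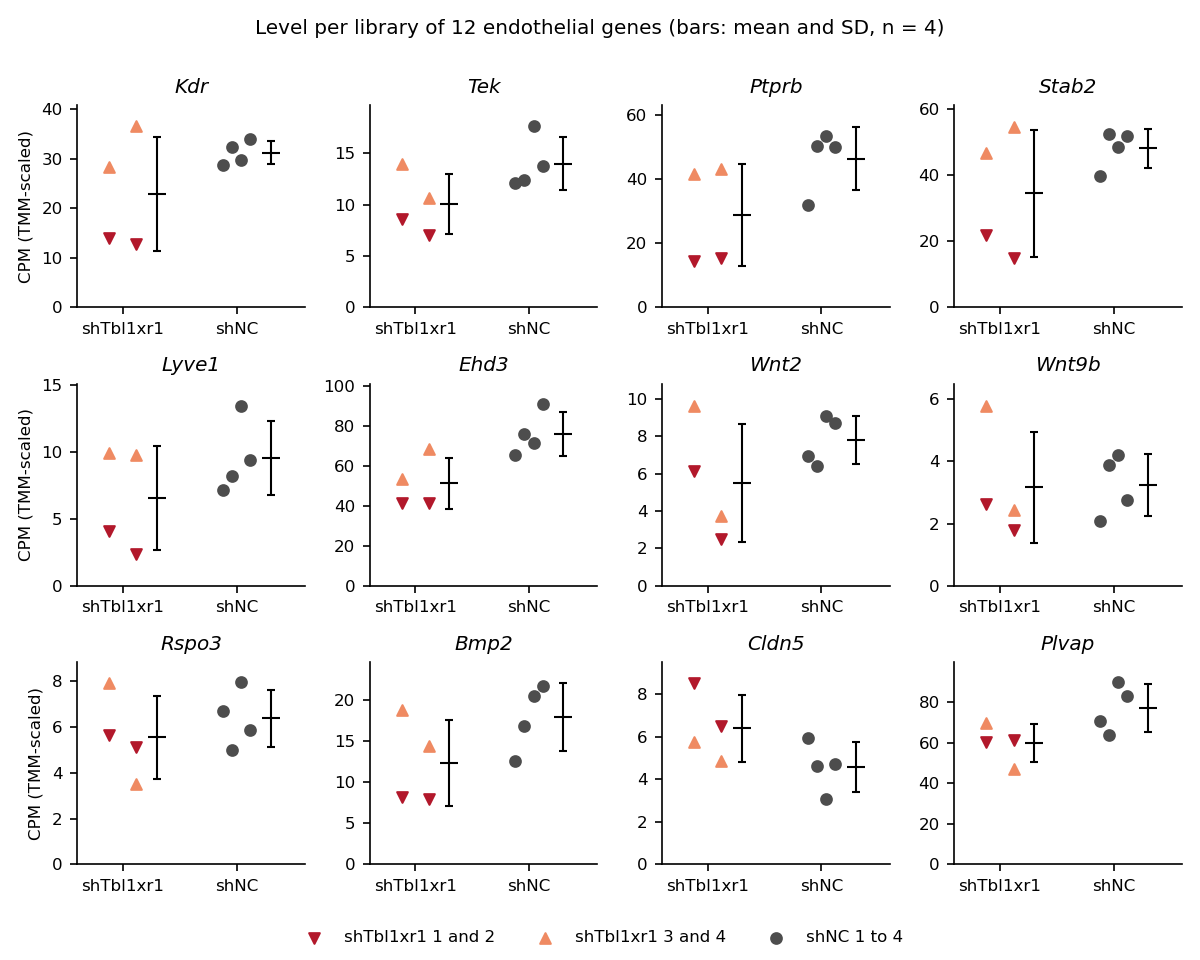
TMM-scaled CPM of 12 endothelial and angiocrine genes in each library; dark downward triangles are shTbl1xr1 1 and 2, light upward triangles shTbl1xr1 3 and 4, grey circles the 4 shNC libraries, and bars give mean and SD of each group (n = 4). Kdr, Ptprb and Stab2 show the pairs of shTbl1xr1 apart, while Wnt2, Wnt9b, Rspo3 and Plvap do not.

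Gene length moved with the values in shTbl1xr1 1 and 2. Over all 14314 genes tested, the rank correlation between deposited gene length (mean of shNC) and log2 fold change was -0.52 in this pair, and over the 36 endothelial genes it was -0.60. In shTbl1xr1 3 and 4 it was 0.24 over 14645 genes and 0.08 over the 36. These correlations are across genes that share libraries and are descriptions only. When all genes were parted into 4 bins of about equal size by length, at 1510, 2399 and 3626 bases, the median log2 fold change in shTbl1xr1 1 and 2 was 0.64, 0.11, -0.25 and -0.58 from the shortest to the longest bin. The endothelial genes in the same bins had medians of 0.14, -0.21, -0.58 and -0.87, so in each bin they lay under the median of all genes. Of the 36, 17 belonged to the longest bin, where 11 of them and 44.4% of all genes were called lower. From the shortest bin up, 1 of 4, 1 of 7 and 5 of 8 were called, beside 5.25%, 11.2% and 23.5% of all genes.

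With the trend over length taken out of each library, an analysis added after the data were seen, 13 of 36 endothelial genes were called lower and 1 higher in shTbl1xr1 1 and 2 by edgeR, where 11.9% of all genes were called lower and 16.1% higher. Of the 13, 12 were among the 18 called before. Those no longer called were Flt1 (-0.30), Flt4 (0.05), Tek (-0.34), Eng (-0.31), Oit3 (-0.27) and Nos3 (-0.63). Egfl7 was called in addition, with a log2 fold change of -0.71 (adjusted p = 0.0058). The sign in this pair turned for Flt4, Tie1 (0.14), Robo4 (0.17), Ramp2 (-0.30), Gpr182 (0.19), Emcn (-0.16), Vwf (0.09), Sox18 (-0.04) and Rspo3 (0.02). Ptprb, at 11911 and 11115 bases in these libraries the longest of the 36, had a log2 fold change of -0.71 in place of -1.64, and Lyve1 had -1.41 in place of -1.55. The gene called higher was Dnase1l3, with 0.59 (adjusted p = 0.0138). The scavenger and surface proteins kept 7 of 10 called lower and the vascular receptors 2 of 9, Kdr and Ptprb.

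**Figure D4:**
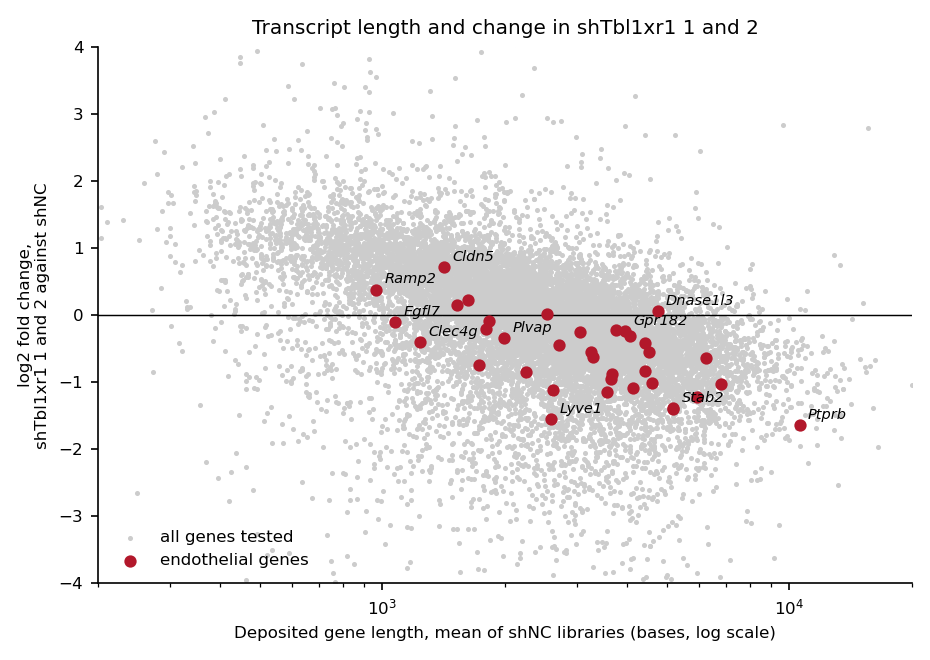
Log2 fold change in shTbl1xr1 1 and 2 against shNC (vertical axis) by deposited gene length (mean of shNC libraries, bases, log scale) for all genes tested in grey and the 36 endothelial genes in red. The grey cloud slopes down from short to long genes (rank correlation -0.52), and the red points slope the same way (-0.60); a few grey points beyond the axis limits are not drawn.

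The deposited length of a gene is the authors' average over its transcripts, weighted by their estimated share, and it differed between libraries for several endothelial genes. Stab1 had 810 and 1041 bases in shTbl1xr1 1 and 2, 3241 and 4972 bases in shTbl1xr1 3 and 4, and 3332 to 5465 bases in shNC. Mrc1 had 2575 and 2456 bases in the first pair and 4958 to 5261 bases in shNC, and Vwf had 1820 and 914 bases against 3425 to 6613 bases. Because TPM divides by length, Stab1 had a mean of 16.6 TPM in shTbl1xr1 and 11.3 TPM in shNC although its counts were lower. No test used TPM, and the TPM means given above describe levels only. Of the 36 genes, 7 were shorter and 6 longer in both of shTbl1xr1 1 and 2 than in every shNC library, beside 20.6% of all genes tested in each direction. In shTbl1xr1 3 and 4 there were 0 of 36 either way, beside 3.63% shorter and 4.08% longer.

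Other endothelial genes, and genes of vascular and angiocrine signalling, were counted in lists of their own in shTbl1xr1 1 and 2. Some genes of these lists are also or mainly made by other liver cells. In that pair 21.1% of all genes were called lower and 21.5% higher. Of 21 further endothelial surface markers tested there, 10 were called lower and 0 higher by edgeR, with a median log2 fold change of -0.78. Examples are Clec14a, a vascular C-type lectin (-0.96, adjusted p = 0.00391), and Calcrl, the receptor that pairs with Ramp2 (-0.89, adjusted p = 0.00302). Esm1 and Apln, tip cell genes, were at 0 counts in both libraries of the pair and were too low to test, as were Pgf and Il6 of the lists that follow at 0 there. Of 18 endothelial transcription factors, 7 were called lower and 0 higher, among them Ets1 (-1.31, adjusted p = 0.000249) and Lmo2 (-1.10, adjusted p = 0.0181). Of 14 genes of VEGF and Notch signalling, 5 were lower and 2 higher: Vegfa (-1.19), the VEGF co-receptor Nrp2 (-1.53), and Dll1, Jag1 and Notch1 were lower, and Vegfb (1.09) and Hes1 were higher. Of 16 other angiocrine and growth factors, 6 were lower and 0 higher, led by Hgf, the hepatocyte growth factor, at -2.98 (SE 0.36, adjusted p = 0.000447). With the trend over length taken out, where 11.9% of all genes were lower, the counts called lower were 4 of 21 surface markers, 2 of 18 transcription factors (median -0.19), 2 of 14 genes of VEGF and Notch signalling and 3 of 16 other angiocrine and growth factors. Called higher were then 1 of 18 transcription factors and 1 of 14 genes of VEGF and Notch signalling, where 16.1% of all genes were higher. The highest value among those 14 genes was then 0.61, in place of 1.09. Clec14a was no longer called (-0.45, adjusted p = 0.128). In shTbl1xr1 3 and 4 and over all 8 libraries, 0 genes of these lists were called. Hgf, Vegfa, Jag1, Notch1 and Hes1 were picked for mention after their values were seen.

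Hgf read 1.63, 1.38, 10.5 and 6.99 CPM in shTbl1xr1, against 8.04, 11.4, 16.2 and 12.1 CPM in shNC. Libraries 1 and 2 were far under all others, and shTbl1xr1 4 also lay under the shNC range. Bmp10, a ligand of Eng made largely by stellate cells in the liver, read 1.88, 3.31, 2.45 and 3.15 CPM in shTbl1xr1, against 5.63, 3.30, 7.17 and 4.39 CPM in shNC. Its log2 fold change was -0.99 in shTbl1xr1 1 and 2 and -0.87 in shTbl1xr1 3 and 4, with edgeR adjusted p-values of 0.0677 and 0.393, so it was called in neither.

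Genes that respond to the angiocrine signals were counted in the same way. Of 16 pericentral Wnt target genes, 8 were called higher and 1 lower in shTbl1xr1 1 and 2, with a median log2 fold change of 0.51, beside 21.5% of all genes higher and 21.1% lower. Glul, the pericentral glutamine synthetase, read 952.9, 1350, 427.5 and 760.5 CPM in shTbl1xr1, against 884.1, 639.6, 756.8 and 722.5 CPM in shNC, and rose by 0.61 in the first pair (edgeR adjusted p = 0.0243). The gene called lower was Axin2, the feedback inhibitor induced by Wnt signalling in many tissues, at 4.38, 4.28, 6.18 and 3.69 CPM in shTbl1xr1, against 7.68, 6.47, 6.67 and 8.24 CPM in shNC. Axin2 fell by 0.75 in shTbl1xr1 1 and 2 (edgeR adjusted p = 0.016), and its log2 fold change was -0.56 (adjusted p = 0.438) in shTbl1xr1 3 and 4 and -0.64 (adjusted p = 0.354) over all libraries. Over all libraries its groups did not overlap, as for 1 of the 16 genes and 3.37% of the 13908 genes tested in the lower direction. With the trend over length taken out, the call of Axin2 in shTbl1xr1 1 and 2 was lost (-0.43, adjusted p = 0.144). Of the 16 genes, 7 were then called higher and 0 lower, beside 16.1% and 11.9% of all genes. In shTbl1xr1 3 and 4 the 16 genes had a median of -0.33, with 12 negative and 4 positive, and 0 were called. Lgr5, the R-spondin receptor of pericentral hepatocytes, had -0.53 and -0.80 in the pairs and was not called. Of 8 BMP targets, 1 was higher in shTbl1xr1 1 and 2, Id2, at 0.79 (adjusted p = 0.0165), a smaller share than the 21.5% of all genes, and with the trend over length taken out Id2 was not called (0.33, adjusted p = 0.218). Hamp varied within both groups, from 182 to 736 CPM in shTbl1xr1 and from 163 to 614 CPM in shNC.

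Markers of macrophages and stellate cells were also lower in shTbl1xr1 1 and 2, while most hepatocyte markers were higher. Of 12 macrophage markers, 10 were called lower and 0 higher by edgeR, beside 21.1% and 21.5% of all genes, with a median of -1.26. Their summed level was 332 to 358 CPM in that pair, 695 to 743 CPM in shTbl1xr1 3 and 4 and 605 to 971 CPM in shNC. Of 12 stellate cell markers, 8 were lower and 0 higher, with a median of -1.42, and summed levels of 155 to 160 CPM, 352 to 647 CPM and 318 to 558 CPM in the same order. None of these markers was at 0 in any library. Among them were Marco, a scavenger receptor of Kupffer cells (-2.19, adjusted p = 0.00335), and the proteoglycan Dcn (-1.42, adjusted p = 0.000255). Of 12 hepatocyte markers, 6 were higher and 1 lower, beside the same shares of all genes. Among those higher was Fah, an enzyme of tyrosine breakdown (1.03, adjusted p = 0.000317). With the trend over length taken out, 12 of 12 macrophage markers and 5 of 12 stellate markers were called lower, beside 11.9% of all genes. Hepatocyte markers then had 7 of 12 higher and 0 lower, beside 16.1% and 11.9% of all genes.

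The remaining lists had 1 call each in that pair, where 21.5% of all genes were called higher and 21.1% lower. Of 7 cholangiocyte genes 1 was higher, of 5 red cell genes 1 was higher, of 4 lymphocyte genes 1 was lower and of 5 neutrophil genes 1 was lower, and the last 2 lists lay near the detection limit, with summed levels of at most 3.87 CPM in the pair. Genes at 0 counts in both of shTbl1xr1 1 and 2 included Cd8a of lymphocytes and Ly6g, Cxcr2 and Mpo of neutrophils. In shTbl1xr1 3 and 4 and over all 8 libraries, 0 genes of any of these lists were called. The part of cell mixture, depth and mitochondrial share in the lower endothelial values of shTbl1xr1 1 and 2 was not tested.

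**Figure D5:**
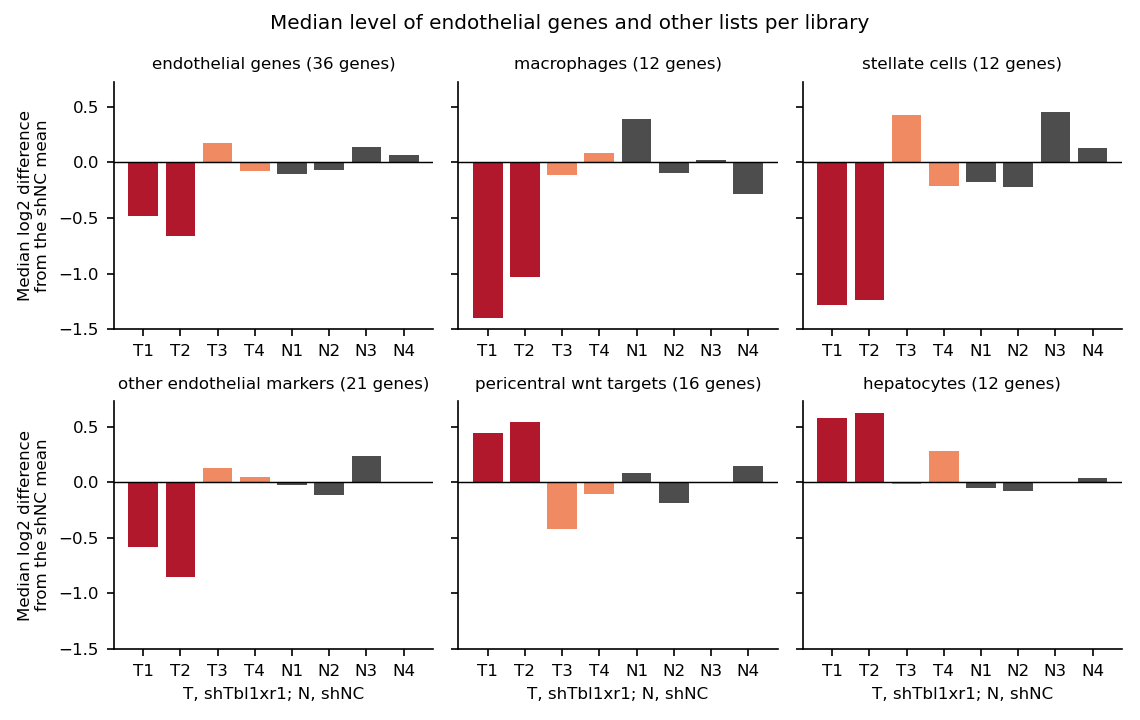
Median log2 difference from the shNC mean in each library for the 36 endothelial genes and 5 other lists; T1 to T4 are the shTbl1xr1 libraries and N1 to N4 the shNC libraries. Endothelial, macrophage and stellate lists have low bars in T1 and T2 (endothelial -0.48 and -0.66), where hepatocyte and pericentral lists have high ones.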

How the data were processed

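Bulk RNA-seq of mouse liver RNA was deposited as 1 table for each of 8 libraries. Per the file headers, each table holds expected counts estimated by the authors per gene, with TPM (the authors' values scaled by effective length and library), FPKM and gene lengths. Alignment and quantification tools are listed as RSEM and STAR, with mm10 as the build and DESeq2 at 1.30.1, per the submitters' processing notes. Neither the annotation release nor the strand setting is given there or in the labels. RNA was extracted with TRIzol and libraries made with the MGIEasy RNA set, per the labels' protocols. Without a known strand setting, reads of a gene and an overlapping antisense gene cannot be told apart.

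Gene identifiers were matched to symbols in GENCODE M21, 54349 with their version and 55141 in all of 55401. Expected counts were rounded to whole numbers. Genes were filtered with filterByExpr, scaled by TMM and tested with edgeR 4.0.16 in R 4.3.3 by the robust quasi-likelihood F test, with Benjamini-Hochberg adjustment over all genes tested and a threshold of 0.05. The fits compared all 4 shTbl1xr1 with all 4 shNC libraries, and each pair of shTbl1xr1 libraries with shNC. Tbl1xr1 was compared by an exact permutation test on log2(CPM + 1) over 70 arrangements. SD is over libraries and SE is of the fitted log2 fold change. Levels per library rest on 10728583 to 36720879 counts. DESeq2 1.42.0, limma 3.58.1, sva 3.50.0, other scalings, no filter and leaving out each library were tried as alternatives. The length trend was removed by a per-library lowess (span 0.3) used as an offset. The scripts were tested on simulated data.

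The 36 genes and all other lists were chosen with earlier results of these data known. Per-library values are printed for genes past the threshold over all libraries, the 6 endothelial genes with the smallest p, the 5 with the highest TPM, the 4 whose pairs differ most, and Kdr, Stab2, Lyve1, Tek, Wnt2, Wnt9b, Rspo3 and Bmp2. Nos3 and Gpr182 were added after their values were seen. Of each other list up to 3 genes with the smallest p could be named, with Tbl1xr1, Glul, Axin2, Lgr5 and Alb. FPKM was not used.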

Additional observations from a re-analysis of the deposited data

Results flagged for a closer look

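In 4 of the 74 groups of 4 libraries checked, 1 library stood far from the others of its group by Dixon's criterion, which flags about 1 group in 20 by chance. Dnase1l3 was lowest in shTbl1xr1 3, at 44.5 CPM, with the other shTbl1xr1 libraries between 54.1 and 55.9 CPM. Among shNC libraries, Ptprb was lowest in shNC 1 at 31.8 CPM, with the others between 49.8 and 53.5 CPM. Sox17 was lowest in shNC 2 at 0.882 CPM, with the others between 1.601 and 1.69 CPM. Erg was lowest in shNC 1 at 2.62 CPM, with the others between 3.95 and 4.15 CPM.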

How the results depend on the processing

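With libraries of both pairs in the fit, 0 of 36 endothelial genes were called under each alternative tried, leaving out each library included. With shTbl1xr1 1 and 2 only, 18 were called lower, and with shTbl1xr1 3 and 4 only, 0 were called. Of all genes, 6 were called higher and 1 lower. Those counts were 3 higher with library size alone, 12 higher without the filter, 248 higher and 47 lower by DESeq2, 0 lower by limma-voom, 31 higher and 2 lower by limma-voom with sample weights, 38 higher and 4 lower with 1 surrogate variable, and 32 higher and 3 lower with the length trend removed. They were 3073 higher and 3021 lower with shTbl1xr1 1 and 2 only, 0 lower with shTbl1xr1 3 and 4 only, and 0 to 28 higher and 0 to 6 lower with 1 library left out. The causes were not tested.

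The median log2 fold change of the 36 genes (-0.22) was -0.44 with library size alone, which moved the median of all genes to -0.27, -0.33 with sample weights, -0.073 with 1 surrogate variable, -0.55 with shTbl1xr1 1 and 2 only, 0.043 with shTbl1xr1 3 and 4 only, and -0.42 to -0.11 with 1 library left out. The Tbl1xr1 difference ranged from -2.83 to -2.01 with 1 library left out, with an exact permutation p of 0.0571, the smallest possible there. For shTbl1xr1 1 and 2, 30 genes were lower with library size alone (median -1.21, with all genes shifted by -0.67). Upper quartile scaling shifted all genes by -0.11. Omitting the filter raised the number of genes tested in this pair from 14314 to 23190. The change of -0.31 in the median of all genes therefore compares different gene sets. The median of the 36 genes was -0.59 without the filter, against -0.55 with it. In the same pair, 13 genes were lower and 1 higher with the length trend removed (median -0.32). There 10 to 18 were lower and 0 to 1 higher with 1 library left out (median -0.68 to -0.46). With 1 library left out, the median for shTbl1xr1 3 and 4 was -0.090 to 0.19. A lone library is assumed to vary like the others.

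None of the genes whose sign turned was called over all libraries. With shTbl1xr1 3 and 4 only, signs turned for Kdr (0.054), Flt4 (0.044), Tie1 (0.19), Eng (0.088), Stab1 (0.22), Stab2 (0.071), Lyve1 (0.043), Oit3 (0.063), Pecam1 (0.26), Cdh5 (0.29), Aqp1 (0.042) and Nos3 (0.19). With shTbl1xr1 1 and 2 only, they turned for Robo4 (-0.22), Dnase1l3 (0.058), Esam (-0.087), Vwf (-0.41) and Wnt9b (-0.55). With 1 surrogate variable they turned for Tie1 (0.13), Eng (0.017), Stab1 (0.12), Oit3 (0.0021), Pecam1 (0.17), Cdh5 (0.12) and Nos3 (0.093). With library size alone they turned for Robo4 (-0.18), Ramp2 (-0.096), Esam (-0.20), Emcn (-0.095), Vwf (-0.037), Sox18 (-0.063), Erg (-0.073) and Wnt9b (-0.20). With the length trend removed they turned for Tie1 (0.12), Ramp2 (-0.059), Dnase1l3 (0.23) and Pecam1 (0.023). With upper quartile scaling they turned for Robo4 (-0.0055), Esam (-0.0076) and Wnt9b (-0.047), with sample weights for Robo4 (-0.0026), and without the filter for Wnt9b (-0.0072). With 1 library left out, values ran from -0.16 to 0.14 for Tie1, -0.038 to 0.16 for Robo4, -0.058 to 0.056 for Dnase1l3, -0.31 to 0.12 for Pecam1, -0.43 to 0.00051 for Cdh5, -0.083 to 0.16 for Esam, -0.015 to 0.37 for Vwf, -0.31 to 0.026 for Sox17 and -0.48 to 0.18 for Wnt9b.

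Replicate numbers were not taken as pairing the libraries, since the labels give no shared source and not every same-number correlation of deviations was over 0.1: these were 0.379, -0.074, 0.305 and 0.12, beside -0.377 to 0.375 for different numbers. Libraries shTbl1xr1 1 and 3 correlated best with their own number, and shTbl1xr1 2 and 4 did not. With the replicate number as a block, 4 genes were higher and 1 lower, 0 of 36 endothelial genes were called, their median was -0.27, and Wnt9b had -0.081.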
